A study of Sus scrofa with 2 samples.

Results

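The presynaptic vesicle release machinery is the set of proteins that fill, dock, fuse and recover the transmitter vesicles of nerve terminals. Its genes were described here in the hippocampus of wild-type Rongchang piglets, the part of the forebrain that lays down new memories. The members were chosen by name, from 48 gene symbols, as the rows of a table of expressed genes whose Ensembl pig gene ID was paired with one of those symbols. Of the 48, 35 had a row, of 25322 gene IDs in the table. Of the other 13, SYN3, SV2C, SYT4, VAMP2, CPLX1, CPLX2, NAPB, RAB3C, RIMS2 and DNM3 were paired with an ID that had no row, and VAMP1, UNC13A and PCLO had no ID paired with the symbol, so they were not analysed here. Among the genes without a value were thus VAMP1 and VAMP2, the SNARE proteins of the synaptic vesicle, the complexins CPLX1 and CPLX2 and the active zone scaffold PCLO (piccolo).

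RNA was sequenced from hippocampus of piglets given iron dextran, an injectable iron preparation used in pig husbandry to prevent anaemia, and from hippocampus of control piglets. Both groups were wild-type Rongchang piglets, each with 1 sample. Behind each sample stand 2 names in its description, which may be animals, libraries or runs, and the table holds 1 value per gene and sample. Dose, age and time after injection are not stated in the labels. With 1 sample in each group there was no spread between replicates, so no test was possible and no difference below has a replicate check.

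In a nerve terminal, vesicles are loaded with transmitter by vesicular transporters and held in a reserve pool by synapsins. RAB3 proteins and the scaffolds of the active zone bring them to the membrane, where the SNARE proteins pull vesicle and cell membrane together. Synaptotagmins sense the calcium that enters with an action potential and trigger fusion, NSF and its adaptors take the spent SNARE complex apart, and dynamin, amphiphysin and synaptojanin recover the membrane. In the hippocampus, most terminals of principal neurons release glutamate.

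Values are FPKM, fragments scaled to transcript length and to the number of mapped fragments. Given per length, they can be compared between genes only as far as the gene models behind the lengths are right, and these models are not given. A difference is the log2(FPKM + 1) in iron dextran minus that in control, a scale that understates the change of low genes. Genes counted as measured where FPKM averaged 1 or more over both samples, which left 12557 genes and 34 members; STXBP5 was below that limit. FPKM summed to 850165 in iron dextran and 924070 in control, and 16865 and 16727 IDs were above 0. The number of sequenced fragments is unknown.

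The tissue labels were set against marker genes. Of 12 neuronal markers, the 6 with a row were all above 0, with a summed level of 2876 FPKM in iron dextran and 2986 in control, and of 10 hippocampal subfield markers the 8 with a row were above 0 in both samples, with sums of 181 and 170.4 FPKM. Glial RNA was abundant too: 6 of 8 oligodendrocyte markers had a row and summed to 8610 FPKM in iron dextran and 9792 in control, 5 of 7 astrocyte markers to 1530 and 1594, and 5 of 8 microglial markers to 95.5 and 70.6. Of the subfield markers, PROX1 averaged 0.81 FPKM, below the limit for a measured gene. No marker with a row was listed at 0 in both samples. That included markers of thalamus and habenula, with sums of 55.1 FPKM in iron dextran and 57.9 in control. Being above 0 is thus a weak check of the tissue label, as 16865 and 16727 of 25322 IDs were. In such bulk tissue, fewer cells of a type and less RNA per cell cannot be told apart.

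The release machinery was expressed at high levels and differed little between the samples. Of the 34 measured members, none was higher in iron dextran by 1.5-fold or more, where 2.47% of all measured genes were, and none was lower by that much, where 1.47% of all measured genes were. A count of 0 of 34 is near these shares and is not a result about the members. The median difference was 0.02, beside −0.0046 over all measured genes. Scaling both columns to equal totals adds up to 0.12 to each difference, so that values between −0.12 and 0 can turn above 0 with it. The differences ran from −0.26 for SYN2 to 0.35 for ERC2. Of the 34 members, 19 were above 0 and 15 below, where 49.0% and 51.0% of all measured genes were. The absolute difference had a median of 0.11 over members and 0.13 over all measured genes, and 29 of 34 members lay within 0.25, as did 76.7% of all measured genes.

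**Figure D1:**
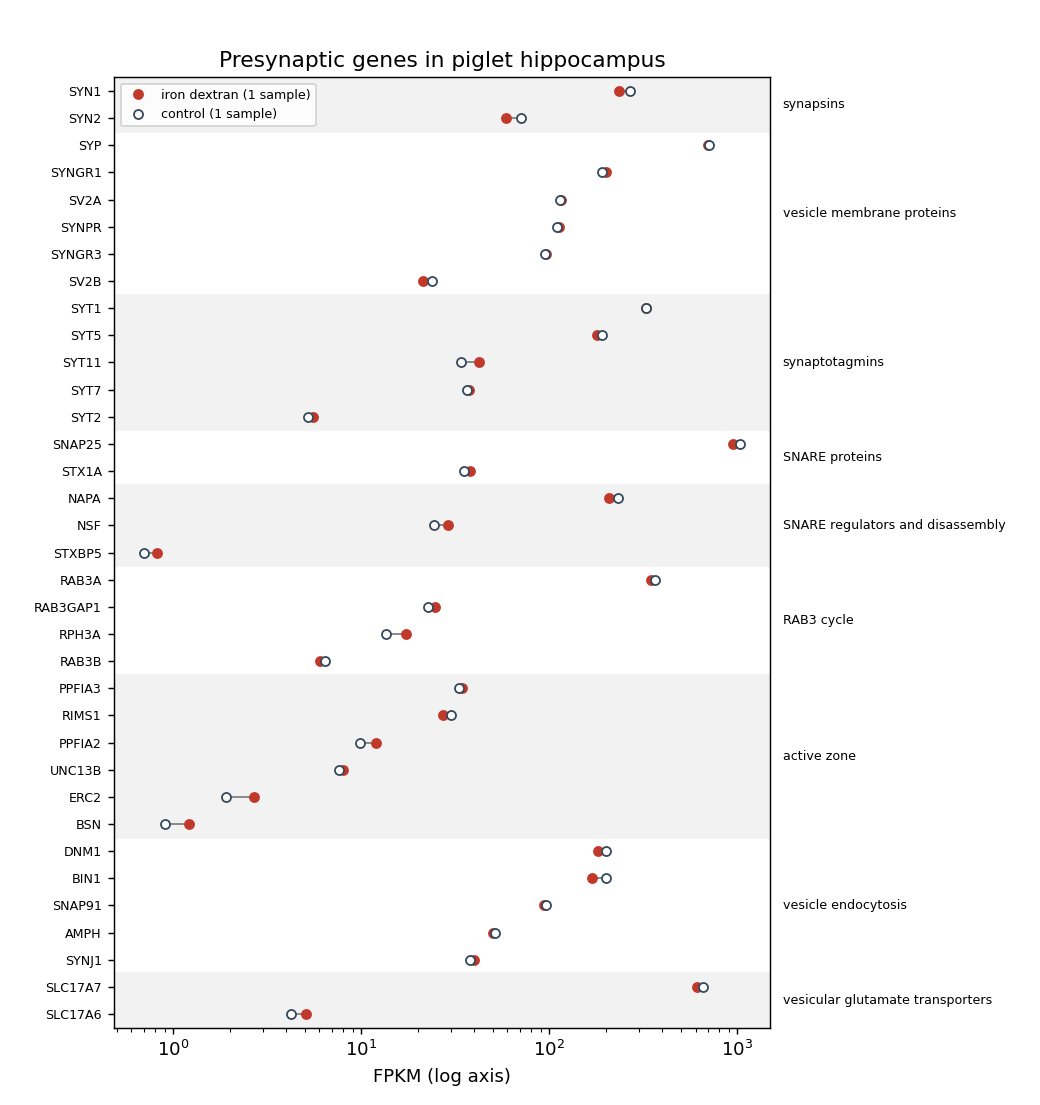
FPKM of the 35 members with a row on a log axis, filled points for iron dextran and open points for control (1 sample each), ordered by role and by level. Levels span from below 1 FPKM (STXBP5) to 952 FPKM in iron dextran and 1032 in control (SNAP25), and the pair of points of each gene lies close together.

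The levels covered a wide range. The median of the members' mean FPKM was 45.0, against 9.73 over all measured genes, and 15 of 34 members were among the highest 10% of measured genes. The order began with SNAP25, SYP, SLC17A7, RAB3A, SYT1 and SYN1 and ended with SYT2, SLC17A6, ERC2 and BSN. SNAP25 ranked 79 and SYP ranked 124 among 12557 measured genes. Together the 35 members summed to 4995 FPKM in iron dextran and 5241 in control, which was 0.588% and 0.567% of all FPKM. No spread between samples was available to say which neighbours in this order differ.

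Both synapsins with a row were lower in iron dextran, under every scaling tried. Synapsins are phosphoproteins on the vesicle surface that tether vesicles to each other and to actin. SYN1 (ENSSSCG00000012276) had 236 FPKM in iron dextran and 269.7 in control, a difference of −0.19. SYN2 (ENSSSCG00000023225) had 59.0 and 70.6 FPKM, a difference of −0.26, the lowest among the members. Both lay below the lower quartile of all measured genes, which was −0.12. Most genes of their level were not above 0 either: 85.7% of those from 200 FPKM, the level of SYN1, and 74.1% of those between 50 and 200 FPKM, the level of SYN2. Centred by level, the differences were −0.09 for SYN1 and −0.19 for SYN2. The 2 genes shifted by a similar factor, so that the level of SYN1 was 4.002 times that of SYN2 in iron dextran and 3.82 times in control. These ratios between genes of 1 sample do not depend on how the columns are scaled.

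As deposited, the genes of the vesicle membrane proteins were at nearly the same level in both samples. Their median difference was 0.02 as deposited, 0.14 with equal column totals and 0.11 with centring by level. Synaptophysin (SYP, ENSSSCG00000012292), an abundant protein of the vesicle membrane that binds the vesicle SNARE, had 701 FPKM in iron dextran and 706 in control. Its relative synaptoporin (SYNPR), which in rodents is enriched at the mossy fibre terminals of dentate granule cells, had 112.6 and 109.7 FPKM. Neither differed by more than 0.04 on the log2 scale as deposited. The synaptogyrins, which have the same fold of membrane segments as synaptophysin, were at 201 and 192 FPKM (SYNGR1) and at 96.6 and 95.2 FPKM (SYNGR3). SV2A, a vesicle glycoprotein and the binding site of the antiepileptic drug levetiracetam, had 116.2 FPKM in iron dextran and 114.6 in control. Its relative SV2B was lower, with 21.3 and 23.8 FPKM and a difference of −0.15. The ratio of SV2A to SV2B was 5.45 in iron dextran and 4.82 in control. Over the 6 genes the summed level was 1249 FPKM in iron dextran and 1241 in control, with 4 members above 0 and 2 below.

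Among the synaptotagmins, as deposited, the main fast calcium sensor was at the same level in both samples and SYT11 was higher. SYT1 (ENSSSCG00000000948), the sensor of synchronous release, had 327 FPKM in iron dextran and 326 in control, a difference of 0.0050. That difference was 0.12 with equal column totals and 0.11 with centring by level. SYT7, a high-affinity sensor linked to asynchronous release and facilitation, had 37.3 and 36.7 FPKM. SYT2, the fast sensor of many brainstem and inhibitory terminals, had 5.57 and 5.22 FPKM. These 3 calcium sensors differed by at most 0.08 as deposited. SYT5, a calcium-binding relative of SYT1, had 179 and 192 FPKM, the only one of the 5 synaptotagmins that was lower, and it turned above 0 with equal column totals and with centring by level. SYT11 (ENSSSCG00000006506), which does not bind calcium and has been tied to membrane retrieval, had 42.4 FPKM in iron dextran and 34.1 in control, a difference of 0.31. SYT1 accordingly stood at 7.70 times SYT11 in iron dextran and 9.53 times in control. SYT11 is expressed in astrocytes as well as neurons. Of the 5 astrocyte markers, 3 were above 0, with SLC1A3 at 142.9 and 115.5 FPKM and GJA1 at 215.5 and 178, and 2 below, among them GFAP at 1145 and 1275. The part of astrocyte RNA in the SYT11 difference was not tested.

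The SNARE proteins at the cell membrane differed in opposite directions by small amounts, though with equal column totals SNAP25 turned to 0.0033. SNAP25 (ENSSSCG00000026985), which gives 2 of the helices of the SNARE bundle, was the highest member, with 952 FPKM in iron dextran and 1032 in control, a difference of −0.12. STX1A (ENSSSCG00000007772), syntaxin 1A, had 38.0 and 35.0 FPKM, a difference of 0.11. The ratio of SNAP25 to STX1A was 25.1 in iron dextran and 29.5 in control.

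The genes that take the SNARE complex apart also went in opposite directions, under every scaling tried. NSF (ENSSSCG00000017316), the ATPase of this step, had 28.9 FPKM in iron dextran and 24.5 in control, a difference of 0.23. NAPA (ENSSSCG00000003120), alpha-SNAP, the adaptor that recruits NSF, had 209 and 233 FPKM, a difference of −0.16. At its level, from 200 FPKM, 85.7% of all measured genes were not above 0. Centred by level, NAPA was at −0.05 and NSF at 0.25. The level of NSF was 0.138 of that of NAPA in iron dextran and 0.105 in control, a log2 change of 0.40 in the ratio. STXBP5, tomosyn, which occupies the SNARE partners in place of the vesicle SNARE, was the lowest member, with 0.824 and 0.701 FPKM.

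In the RAB3 cycle the GTPases RAB3A and RAB3B were slightly lower, and RAB3GAP1 and RPH3A were higher; with equal column totals both GTPases turned above 0. RAB3A (ENSSSCG00000013897), the main vesicle GTPase, had 348 FPKM in iron dextran and 364 in control, and RAB3B had 6.03 and 6.42 FPKM. RAB3A was thus 57.6 times as abundant as RAB3B in iron dextran and 56.7 times in control. RAB3GAP1, the catalytic subunit of a protein that switches RAB3 off, had 24.7 and 22.7 FPKM. RPH3A (ENSSSCG00000009883), rabphilin, which binds RAB3 in its active form, had 17.2 FPKM in iron dextran and 13.5 in control, a difference of 0.33. As deposited, RPH3A and ERC2 were the 2 members that were at least 25% higher in iron dextran on the FPKM + 1 scale, a rule that 8.81% of all measured genes met. This call depended on the scaling: with a trimmed mean of M values ERC2 alone met it, after centring by level SYT11 alone did, and with equal column totals 5 members did, RPH3A, ERC2, SYT11, NSF and PPFIA2. Equal column totals also moved the median of all measured genes to 0.10, with 72.0% of them above 0. The share of all measured genes that met the rule is given only for the columns as deposited, so the counts under other scalings have no share beside them. By the same fold in the other direction, at least 20% lower, no member was called, against 5.96% of all measured genes.

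**Figure D2:**
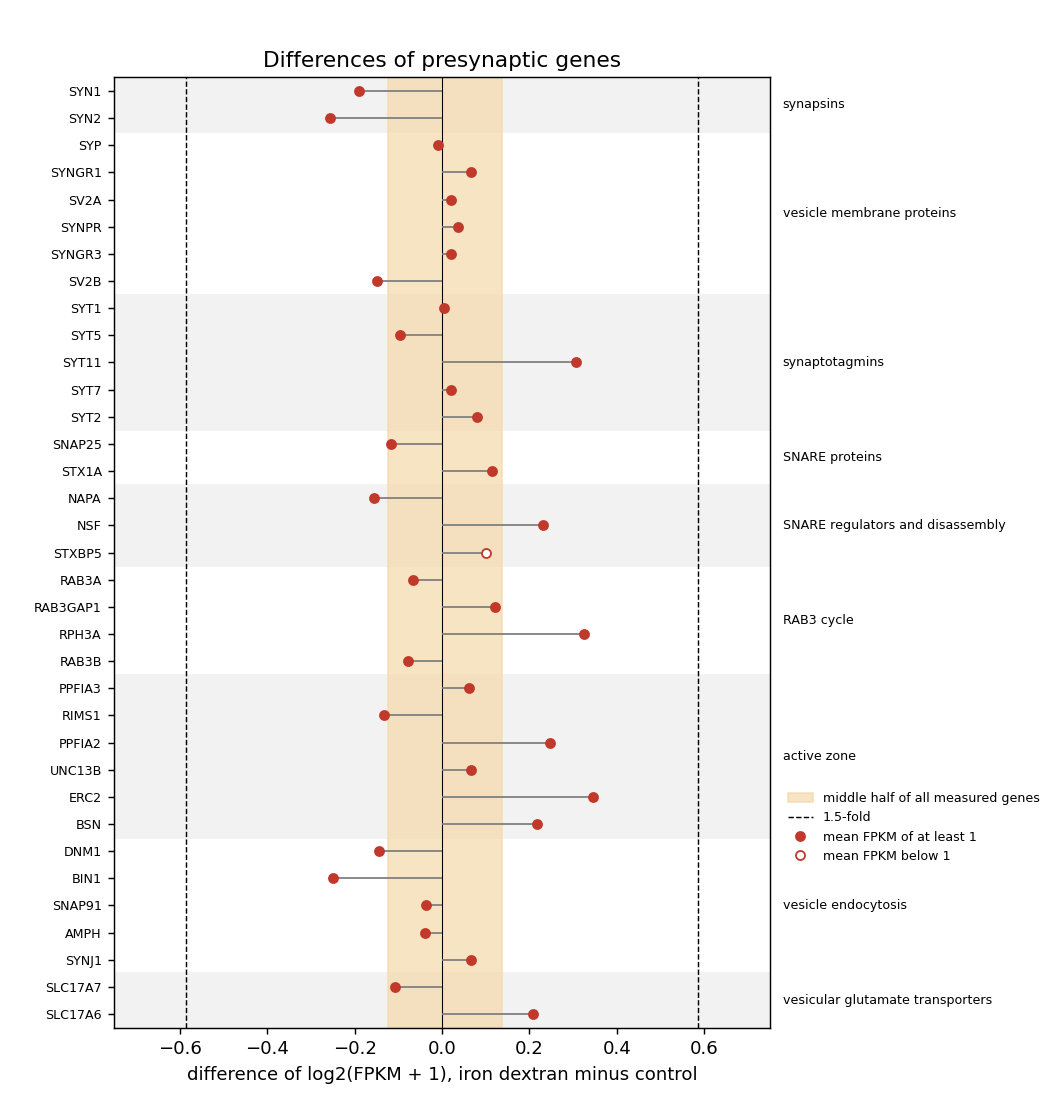
Log2(FPKM + 1) in iron dextran minus that in control for the 35 members by role, with the band between the quartiles of all measured genes (−0.12 to 0.14) and dashed lines at 1.5-fold. No member reaches a dashed line; ERC2, RPH3A and SYT11 lie farthest to the right and SYN2 and BIN1 farthest to the left.

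The active zone was the role with the highest median difference, 0.14, with 5 of 6 measured members above 0, where 49.0% of all measured genes were. The share was 59.4% between 1 and 10 FPKM, the level of ERC2, BSN and UNC13B. It was 44.9% between 10 and 50 FPKM, the level of RIMS1, PPFIA2 and PPFIA3. That median was 0.0641 at a mean FPKM of at least 5, which leaves out ERC2 and BSN, and 0.23 with equal column totals. Its genes encode the scaffolds that dock vesicles and hold calcium channels close to them. ERC2 (ENSSSCG00000024417), a scaffold that binds RIM and piccolo, had 2.68 FPKM in iron dextran and 1.90 in control, a difference of 0.35, the highest among the members. BSN (ENSSSCG00000011384), bassoon, had 1.22 and 0.905 FPKM, a difference of 0.22. Both were among the lowest members, where 1 FPKM in the pseudocount weighs most: the FPKM of ERC2 in iron dextran was 1.41 times that in control and that of BSN 1.34 times. PPFIA2 (ENSSSCG00000000940), liprin-alpha-2, had 11.9 and 9.88 FPKM, a difference of 0.25, and PPFIA3, liprin-alpha-3, had 34.6 and 33.1 FPKM. UNC13B, a Munc13 protein that primes vesicles for fusion, had 8.05 FPKM in iron dextran and 7.64 in control. RIMS1 (ENSSSCG00000004280), which links RAB3, Munc13 and calcium channels, was the one active zone member below 0, with 27.2 and 29.9 FPKM and a difference of −0.13. The ratio of RIMS1 to ERC2 was therefore 10.1 in iron dextran and 15.7 in control, a log2 change of −0.63, and that of PPFIA3 to PPFIA2 was 2.90 and 3.35. The sum of the 6 genes, in which RIMS1 and PPFIA3 weigh most, was 85.6 FPKM in iron dextran and 83.3 in control.

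Of the genes of vesicle endocytosis, 4 of 5 measured members were below 0, with a median of −0.04. These 4 were all the members of this role between 50 and 200 FPKM, where 74.1% of all measured genes were not above 0. SYNJ1, above 0, lay between 10 and 50 FPKM, where 55.1% were not above 0. With so few genes, the count is not a result about this role. That median turned to 0.08 with equal column totals and to 0.03 when differences were centred by expression level. DNM1 (ENSSSCG00000005641), the neuronal dynamin that cuts vesicles from the membrane, had 182 FPKM in iron dextran and 201 in control, a difference of −0.14. BIN1 (ENSSSCG00000015720), amphiphysin 2, had 169 and 201 FPKM, a difference of −0.25. Its relative AMPH had 50.3 and 51.7 FPKM, and the clathrin adaptor SNAP91 had 93.7 and 96.1. These last 2 lay within 0.04 of equality. SYNJ1, synaptojanin, the phosphatase that helps to uncoat vesicles, had 39.8 FPKM in iron dextran and 38.0 in control. BIN1 is also expressed in oligodendrocytes. Of 8 oligodendrocyte markers listed, 6 had a row and none of these was at 0. Of the 6, 5 were below 0, with a median of −0.19; their sum in iron dextran was 0.879 of that in control, and the FPKM of BIN1 in iron dextran was 0.84 of that in control. The part of oligodendrocyte RNA in the BIN1 difference was not tested.

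The vesicular glutamate transporters differed from each other far more than between the samples. SLC17A7 (ENSSSCG00000003170), VGLUT1, the main transporter of cortical and hippocampal principal neurons, had 611 FPKM in iron dextran and 658 in control, a difference of −0.11 that turned to 0.01 with equal column totals. SLC17A6 (ENSSSCG00000013343), VGLUT2, which is typical of thalamic and other subcortical inputs, had 5.06 and 4.24 FPKM, a difference of 0.21. The ratio of SLC17A7 to SLC17A6 was 121 in iron dextran and 155 in control. Markers of thalamus and habenula, 5 of 6 of them measured, had a median of −0.20, with 2 above 0 and 3 below, and a sum of 55.1 FPKM in iron dextran and 57.9 in control. LHX9, of that list, was listed at 0 in control and had 0.0919 FPKM in iron dextran. SLC32A1, the vesicular transporter of GABA and glycine, had 31.5 FPKM in iron dextran and 28.6 in control, so that SLC17A7 stood at 19.4 and 23.0 times its level.

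The members' differences, as deposited, decreased with level. Across the 34 measured members, the difference and the log2 of the mean FPKM had a Pearson correlation of −0.61 and a Spearman correlation of −0.61. All points share the same pair of samples, and the level is the mean of the values that make the difference, so these correlations are a description. Over all 12557 measured genes the same correlations were −0.11 and −0.23, and over 53 other presynaptic genes −0.34 and −0.42. Of the 7 members with a mean of at least 200 FPKM, SYT1 was above 0 and 6 were below, with a median of −0.11; all 477 genes at that level also had a median of −0.11, and 14.3% of them were above 0. Between 50 and 200 FPKM, 4 of 10 members were above 0, with a median of −0.04, beside −0.08 over 1367 genes. Between 10 and 50 FPKM, 9 of 11 members were above 0, with a median of 0.11; the 4347 genes at that level had a median of −0.02, and 44.9% of them were above 0. Below 10 FPKM, 5 of 6 members were above 0, with a median of 0.14, beside 0.05 over 6366 genes. The most abundant members thus had the median of other genes of their level, and the medians of the members between 1 and 50 FPKM lay above those of other genes, by amounts for which no test was available. With differences centred on genes of similar level, 24 of 34 members were above 0 and the median was 0.08. Of all measured genes 49.99% were then above 0, a share that the centring sets.

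**Figure D3:**
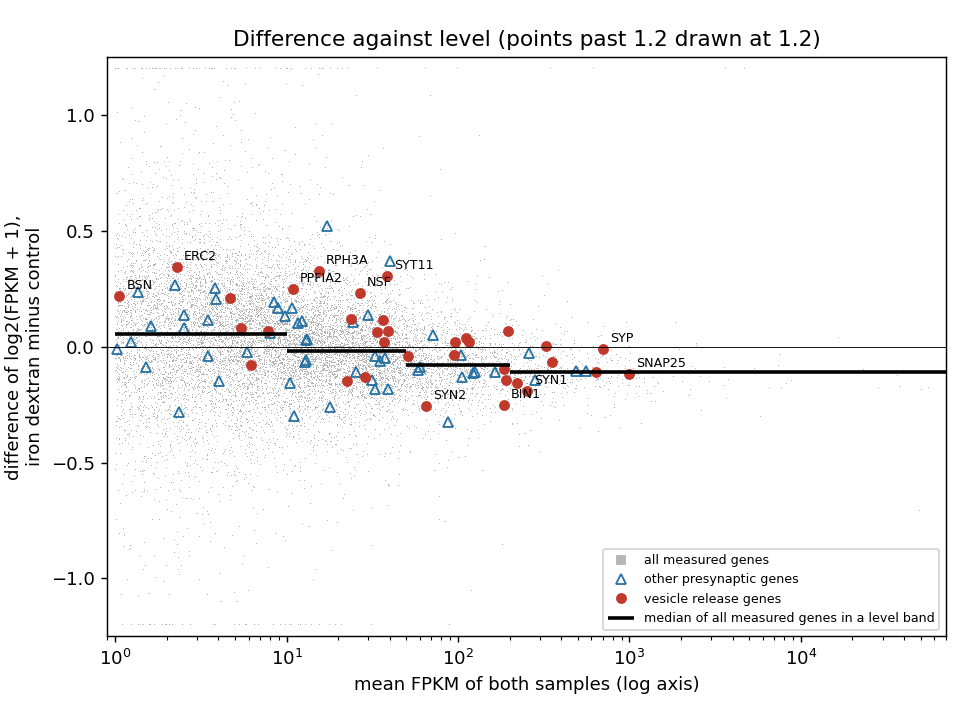
Log2(FPKM + 1) in iron dextran minus that in control, against mean FPKM on a log axis, for all measured genes (grey), vesicle release genes (filled circles) and other presynaptic genes (open triangles), with black lines at the median of all measured genes in 4 bands of level. As deposited, members slope from above 0 at low levels to below 0 at high levels, and the black lines slope the same way, from 0.05 to −0.11.

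A wider list of presynaptic genes had differences of a similar size. Of 81 such genes, 61 had a row and 53 were measured. None was 1.5-fold higher, where 2.47% of all measured genes were, and none 1.5-fold lower, where 1.47% were. These counts are near those shares and are not a result about the list. Of the 53, 23 were above 0 and 30 below, where 49.0% and 51.0% of all measured genes were, and the median was −0.03. CLTC, the clathrin heavy chain, had the highest difference, with 20.5 FPKM in iron dextran and 13.9 in control. LIN7C, a scaffold of a presynaptic complex with CASK, had 45.4 and 34.9 FPKM, and CPLX3, a complexin best known from retina, had 2.53 and 1.94. The lowest were SH3GL3, an endophilin, with 78.0 FPKM in iron dextran and 97.9 in control, the syntaxin STX4 with 9.82 and 12.3, and SYNJ2 with 2.04 and 2.69.

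By role, as deposited, the wider list matched the members' direction in some roles and not in others. Beside the counts below, 49.0% of all measured genes were above 0 and 51.0% below. The 3 other vesicle membrane genes were all below 0, with a median of −0.11, where the 6 members had 0.02, and 4 of 6 other synaptotagmins and relatives were below 0, with a median of −0.08, where the 5 members had 0.02. The 7 other SNARE genes had a median of −0.10, with 3 above 0, the 5 other SNARE regulators 0.11, with 4 above 0, and the 5 other genes of the RAB3 cycle −0.02, with 2 above 0. The 2 other measured vesicular transporters had a median of 0.05. The 8 other active zone genes had a median of 0.14, with 6 above 0, among them PPFIA4 at 4.26 and 3.42 FPKM and RIMS4 at 11.4 and 10.1. The 17 other endocytosis genes had a median of −0.09, with 12 below 0, among them the clathrin adaptor subunits AP2M1 at 539 and 580 FPKM and AP2S1 at 269 and 297.3. CPLX4 was listed at 0 in both samples.

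Related neuronal genes, not matched for level, had higher medians than the vesicle release genes, and the channel subunits a wider spread. Mean FPKM ran from 1.75 (GRIK3) to 54.3 (GRIA1) over AMPA and kainate subunits. Over measured channel subunits it ran from 1.44 (SCN1A) to 98.3 (SCN2B). The vesicle release genes had a median of 45.0 and reached 992 (SNAP25). Those between 1 and 10 FPKM had a median difference of 0.14, and those between 10 and 50 FPKM 0.11. The part of level in the higher medians was not tested. The 9 AMPA and kainate receptor subunits, which receive the glutamate that these terminals release, had a median of 0.12. Of them, 5 were above 0 and 4 below, where 49.0% and 51.0% of all measured genes were. Their highest difference was that of GRIA2, 0.54, which is past that of any vesicle release gene. The 16 measured voltage-gated sodium and calcium channel subunits had a median of 0.06, with 10 above 0 and 6 below, and ranged from −0.47 to 0.39. Of these, 9 of 16 lay within 0.25, beside 29 of 34 vesicle release genes and 7 of 9 AMPA and kainate subunits, and their absolute difference had a median of 0.18, beside 0.11 and 0.12. Whether these medians or spreads differ from those of the vesicle release genes could not be tested with 1 sample per group.

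**Figure D4:**
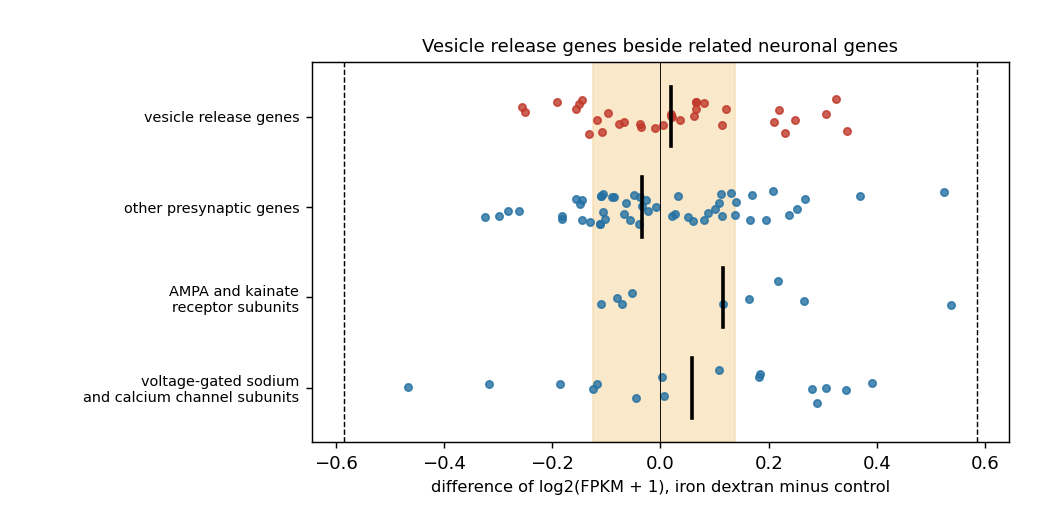
Log2(FPKM + 1) in iron dextran minus that in control for measured genes (points; vertical scatter is only for legibility) with the median of each set (black bar), the band between the quartiles of all measured genes and dashed lines at 1.5-fold. The medians are 0.02 for vesicle release genes, −0.03 for other presynaptic genes, 0.12 for AMPA and kainate subunits and 0.06 for sodium and calcium channel subunits, and no point reaches a dashed line.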

How the data were processed

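The authors deposited 1 table of FPKM values, with 1 column per sample and 1 row per Ensembl pig gene ID. Per the submitters' processing notes, cutadapt 1.2.1 (adapter trimming), TopHat (spliced alignment) and the builds Sscrofa10.2 and susScr3 were used. Per the labels' protocols, total RNA was extracted with RNAiso Plus. The FPKM program, the gene models, strandedness and the way in which both names of a sample were merged: not given in the sources used here. Without strand, reads of overlapping antisense genes cannot be told apart, and a few abundant genes shift all FPKM.

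Columns were assigned by the letter in the sample title. Symbols came from a table of Ensembl IDs and names that matched 11804 of 25322 IDs; each member had at most 1 row. No genome, sequence or length was used. Members and lists were chosen with earlier results of these data known. Differences used a pseudocount of 1 and a mean FPKM of at least 1; 1.5-fold was a rule of size. Members were named by role, as were the 3 largest differences each way of the wider list. Some genes of that list are counted but not reported singly here. On 690 genes with control FPKM below 0.1, 53.04% of the ratios lay within 0.05 log2 units of 1, 2 or 0.5 times a common value, which gives a depth of the iron dextran sample of 1.06 times that of control if steps are whole fragments; absolute depth, and so counting error, is unknown. Alternatives were pseudocounts of 0.1 and 0.01, no filter or a mean FPKM of at least 5, scaling by the median, by a trimmed mean of M values (30% of M and 5% of A trimmed per side) or to the same total, centring in 20 level bins, and folds of 1.25 and 2. The calculation was tested on simulated data. Python 3.11.15, pandas 2.3.3 and scipy 1.17.1 were used.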

Additional observations from a re-analysis of the deposited data

How the results depend on the processing

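No paired analysis was possible because each group was 1 sample. The count of members at least 1.5-fold higher or lower was 0 in each direction under every pseudocount, filter and scaling tried and at 2-fold, and 2 were at least 25% higher, a count that was 1 to 5 over the pseudocounts, filters and scalings, an alternative chosen after seeing the data. The share of all measured genes at least 25% higher is given only as deposited, 8.81%. The median difference of 0.02 was 0.0050 at a mean FPKM of at least 5 (31 members), 0.0104 with a trimmed mean of M values, 0.14 with columns scaled to the same total and 0.0799 after centring by level; it stayed at 0.02 under the other pseudocounts, without a filter, with columns centred on their median, and with all IDs of a symbol. Scaling to the same total moved the median of all measured genes by 0.108, and relative to that median the members stood at 0.04, beside 0.02 as deposited. Of the 34 measured members, 18 were above 0 and 7 below (SYN1, SYN2, SV2B, NAPA, RIMS1, DNM1 and BIN1) in each of these settings that gave them a value (ERC2, BSN and SLC17A6, all above 0, had none under the stricter filter), and 9 changed direction in at least 1: SYP, SYT1, SYT5, SNAP25, RAB3A, RAB3B, SNAP91, AMPH and SLC17A7, none of them further than 0.13 from 0. The share of all measured genes that kept their direction in every setting is not given here, so these counts are not a result about the members. With a pseudocount of 0.01 the difference of ERC2 was 0.50 and that of BSN 0.42. Leaving out a replicate was not possible. Unknown depth limits BSN, STXBP5, ERC2 and SLC17A6, the lowest values, most.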
